A study of Mus musculus with 32 samples.

Results

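Low leucine was compared with full medium in antigen-stimulated CD4+ T cells. The members were the arrays themselves, chosen by their labels: 3 arrays of cells given antigen in medium with leucine at 1% of normal, against 3 arrays of cells given antigen with no amino acid reduced. They were 6 of 32 arrays in the series and 6 of the 23 arrays made 48 h after the start of culture. The T cells came from axial and cervical lymph nodes of Balb/c mice that carry the DO11.10 transgene. It encodes a T cell receptor specific for a peptide of ovalbumin (OVA), the antigen used here. The share of sorted cells with that receptor was not tested. In both groups the T cells were cultured with peritoneal macrophages elicited by thioglycollate, which presented the antigen. CD4+ viable single cells were then sorted for total RNA. The antigen concentration and whether replicates were separate animals or cultures are not given in the sources used here. The p-values and standard errors (SE) therefore measure only a spread between arrays. Unless another fit is named, that spread was pooled over all 8 groups at 48 h, not taken from the 6 compared arrays alone. The full-medium labels name no amino acid and give no percentage. Other 48 h groups served for comparison: antigen with 1% arginine, antigen with 1% lysine, antigen on macrophages first exposed to interleukin-4 and interleukin-10 (IL-4/IL-10, 10 ng/mL each), 3 arrays each, and 3 arrays of low leucine without antigen.

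Leucine is an essential branched-chain amino acid that mammalian cells must import. Its scarcity is read by the kinase GCN2, which binds uncharged transfer RNA and favours translation of the transcription factor ATF4, and by the Sestrins, which restrain the growth kinase complex mTORC1 when leucine is absent. ATF4 switches on amino acid transporters, amino acid synthesis and stress genes, whereas mTORC1 supports glycolysis, ribosome production and, through the SREBP transcription factors, the synthesis of cholesterol and fatty acids. Activated T cells are known to raise leucine import through the Slc7a5/Slc3a2 transporter and to depend on it for growth.

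The sorted populations carried the T cell markers of their label. Cd4 stood at 9.85, 9.96 and 9.95 on the log2 scale in low leucine, against 9.64, 9.79 and 9.93 in full medium. The receptor subunit gene Cd3e stood at 11.82, 11.60 and 11.77 in low leucine and 11.60, 11.71 and 11.60 in full medium. Neither passed the test. Of 13 tested genes of the T cell receptor complex and identity, 3 were called higher in low leucine and 1 lower. Of all genes tested, 1.15% were called higher and 1.56% lower. The list's median change was 0.32, and its mean level was 10.50 to 10.57 in low leucine and 10.28 to 10.32 in full medium. The mean log2 level of 24 macrophage markers was 6.03 to 6.45 in low leucine, against 6.38 to 6.47 in full medium and 6.78 to 7.07 in low leucine without antigen. Of these 24, 2 were called lower in low leucine, Lyz2 and Aif1, against 1.56% of all genes tested. When only the 6 arrays were fitted 5 were, and that fit called 988 of 22180 genes lower. The bulk values cannot tell fewer cells of a type from less RNA per cell. Lists of 10 B cell, 11 dendritic cell, 14 granulocyte and mast cell, 11 CD8 and natural killer cell, and 18 mesothelial and stromal markers held 4 called genes in all, against 2.72% of all genes tested.

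One feature of the labels bears on every comparison with full medium. The submitters numbered the full-medium and the IL-4/IL-10 arrays in a run apart from the run that holds all low-amino-acid arrays, so numbering run and medium cannot be told apart. What the numbering stands for is not given. Levels of the IL-4/IL-10 arrays are therefore given beside several results.

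Antigen-stimulated cells in low leucine differed from cells in full medium at 603 of 22180 genes (limma, Benjamini-Hochberg adjusted p below 0.05), which is 2.72% of the genes tested. Of these, 256 were higher (1.15%) and 347 lower (1.56%). Higher genes rose by a median of 0.77 on the log2 scale, and 80 of them by more than 1. Lower genes had a median change of -0.82, and 93 of them exceeded 1 in size. The values in the 3 low-leucine arrays did not overlap those in the 3 full-medium arrays at 5176 genes (23.3%). The number of calls depended on how the spread was estimated. It was 1654 (666 higher, 988 lower) when only these 6 arrays were fitted, and 339 to 401 when any 1 of the 6 arrays was left out. List counts from the fit of the 6 arrays are to be read beside those larger totals. Quantile normalization turned the split to 302 higher and 272 lower genes.

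The 12 largest rises joined stress genes, T cell regulators and genes with no link to either. Il21 encodes interleukin-21, a cytokine of follicular helper T cells. It stood at 9.79, 9.40 and 9.68 in low leucine, against 7.01, 8.21 and 6.59 in full medium, a rise of 2.36 ± 0.37 (log2, SE, n = 3 each; 5.12-fold; adjusted p = 0.000431). Rgs16, which shortens signalling through G protein-coupled receptors such as chemokine receptors, reached 10.56, 10.00 and 10.21 in low leucine and 8.06, 8.38 and 8.17 in full medium, and rose by 2.05 ± 0.17 (adjusted p = 7.77e-08). Tigit, an inhibitory receptor, had 9.33, 8.87 and 9.15 in low leucine and 6.44, 7.31 and 7.67 in full medium, a rise of 1.98 ± 0.33 (adjusted p = 0.000734). These 3 genes were named under a rule that required no overlap between the groups, so their separation is not a result.

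Other named rises had varied roles. Ajuba, a LIM-domain scaffold protein of cell junctions, rose by 2.18, Adh1, an alcohol dehydrogenase, by 2.07, Cox6a2, a muscle form of a cytochrome c oxidase subunit, by 2.03, and Osr2, a zinc-finger transcription factor, by 1.83. Fam171b rose by 1.94. Their full-medium levels were mostly low: Fam171b had 6.37, 6.77 and 5.86 in low leucine, against 4.29, 4.49 and 4.38 in full medium. The other 4 of the 12, Slc7a3, Nupr1, Ddit3 and Cth, belong to the ATF4 targets described next.

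**Figure D1:**
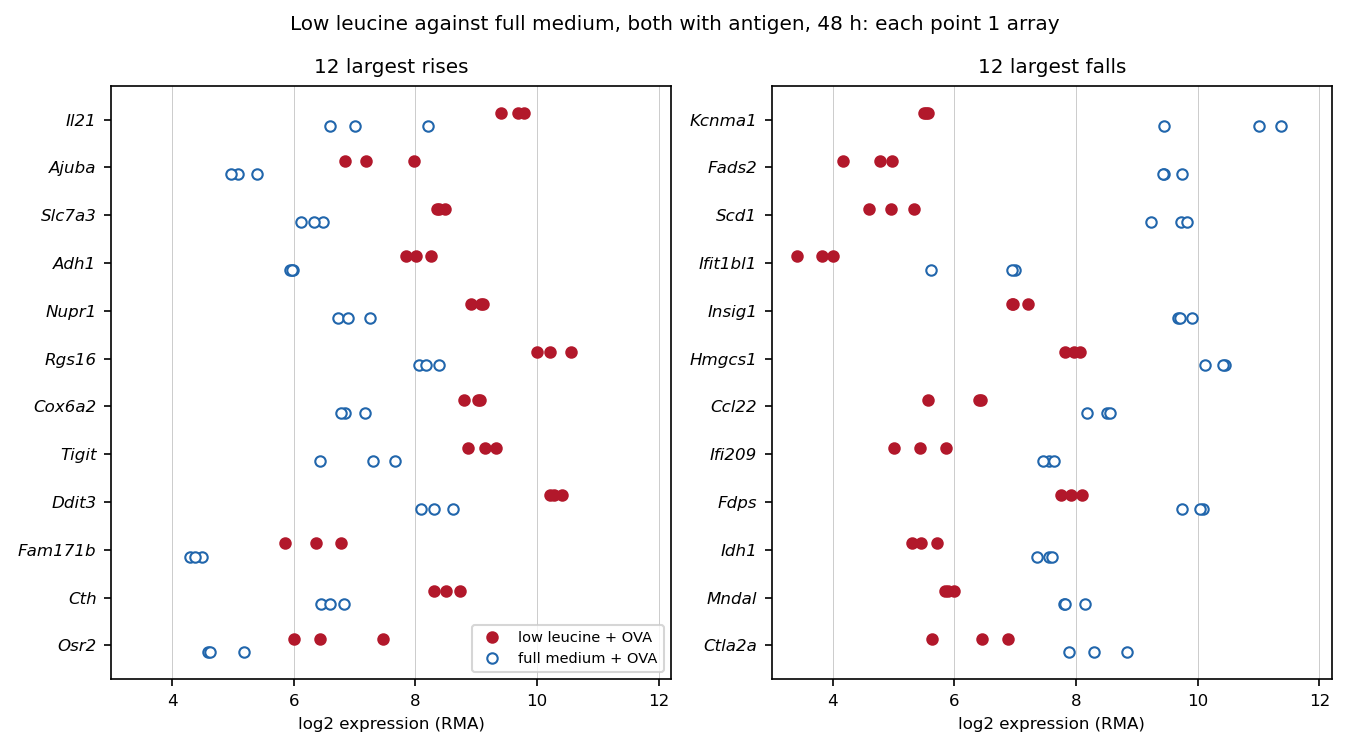
Log2 expression on each array (horizontal axis, RMA scale) of the 12 genes with the largest rises (left) and the 12 with the largest falls (right) among called genes whose arrays did not overlap. Filled points are the 3 low-leucine arrays and open points the 3 full-medium arrays; Kcnma1, Fads2 and Scd1, at the top right, changed by -5.07, -4.90 and -4.63.

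ATF4 targets rose as a group: 15 of 36 tested members were higher in low leucine (1.15% of all genes were) and 0 were lower, while 24 of the 36 had an unadjusted p below 0.05. Their median change was 0.56, against 0.00 for all genes tested, and 34 of 36 changes were positive. The rise was not particular to low leucine. The list's mean level was 8.41 to 8.51 in low leucine and 7.65 to 7.86 in full medium. It was 8.62 to 8.78 in low arginine, 8.22 to 8.38 in low lysine and 8.36 to 8.67 on the IL-4/IL-10 arrays. Promoters of the 4 called members below are printed because each holds a match to TGATGNAA, the shared letters of composite sites bound by ATF4 with C/EBP proteins. Each runs from 250 bases before to 50 bases after the gene start, 5′ to 3′ on the gene's strand, and capitals mark the match (RefSeq, GRCm38.p6). TTGCATCA and TTACATCA are matches read on the opposite strand.
Asns (chr6:7693160-7693459, minus strand): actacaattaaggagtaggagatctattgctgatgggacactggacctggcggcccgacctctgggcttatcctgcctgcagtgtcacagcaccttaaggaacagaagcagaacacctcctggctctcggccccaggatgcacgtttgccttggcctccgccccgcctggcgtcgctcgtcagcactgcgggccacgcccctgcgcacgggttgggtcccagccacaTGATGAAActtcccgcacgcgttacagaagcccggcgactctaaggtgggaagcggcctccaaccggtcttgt
Chac1 (chr2:119350992-119351291, plus strand): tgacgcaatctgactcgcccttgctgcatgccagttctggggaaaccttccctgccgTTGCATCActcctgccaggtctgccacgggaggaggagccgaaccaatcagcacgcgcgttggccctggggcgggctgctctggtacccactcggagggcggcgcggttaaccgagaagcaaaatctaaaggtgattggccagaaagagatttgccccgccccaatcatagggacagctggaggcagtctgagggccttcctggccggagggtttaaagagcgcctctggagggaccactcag
Nupr1 (chr7:126625421-126625720, minus strand): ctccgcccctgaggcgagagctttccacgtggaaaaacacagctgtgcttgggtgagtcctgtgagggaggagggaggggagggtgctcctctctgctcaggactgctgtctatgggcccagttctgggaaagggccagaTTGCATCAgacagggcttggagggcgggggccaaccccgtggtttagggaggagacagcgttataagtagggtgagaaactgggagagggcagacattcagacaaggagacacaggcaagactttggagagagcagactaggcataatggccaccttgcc
Trib3 (chr2:152344011-152344310, minus strand): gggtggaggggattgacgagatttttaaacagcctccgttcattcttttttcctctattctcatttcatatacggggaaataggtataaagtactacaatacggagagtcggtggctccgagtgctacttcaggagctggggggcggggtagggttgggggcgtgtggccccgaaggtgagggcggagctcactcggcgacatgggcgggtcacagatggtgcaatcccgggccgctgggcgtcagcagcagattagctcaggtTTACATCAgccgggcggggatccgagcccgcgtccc
The match begins at -23 in Asns, -193 in Chac1, -110 in Nupr1 and 15 in Trib3, counted from the gene start. Searched on both strands, TGATGNAA occurred in 10 of the 30 list members with a promoter sequence (33.3%), in 17 of 206 genes called higher (8.25%), in 6 of 276 called lower (2.17%) and in 666 of 16990 genes tested (3.92%). The list was chosen for known ATF4 targets, so its share is a description and not a result of these arrays.

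Several stress regulators among the ATF4 targets rose. Ddit3, the pro-apoptotic transcription factor CHOP, stood at 10.21, 10.41 and 10.27 in low leucine, against 8.10, 8.30 and 8.62 in full medium, and rose by 1.96 ± 0.17 (adjusted p = 1.21e-07). Nupr1, a stress-induced chromatin protein, had 9.07, 9.11 and 8.92 in low leucine and 6.72, 7.26 and 6.90 in full medium, a rise of 2.07 ± 0.18 (adjusted p = 1.13e-07). Trib3, a pseudokinase that feeds back on ATF4, had 8.14, 7.88 and 8.02 in low leucine and 6.49, 6.33 and 6.33 in full medium, a rise of 1.63 ± 0.22 (adjusted p = 8.91e-05). All low-leucine arrays lay above all full-medium arrays for Trib3, and 23.3% of all genes tested had no overlap in either direction. For Ddit3 and Nupr1 the naming rule required the separation, so it is not a result. The bZIP factors Atf3 and Atf5 rose by 1.35 and 1.08. Atf4 itself, which is controlled mainly at translation, had 10.98, 10.85 and 11.15 in low leucine and 10.54, 10.62 and 10.69 in full medium, a difference of 0.38 that did not pass the test (adjusted p = 0.21) but did when only the 6 arrays were fitted.

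Genes of amino acid uptake and synthesis rose with them. Slc7a3, a transporter of cationic amino acids, stood at 8.48, 8.36 and 8.38 in low leucine, against 6.12, 6.48 and 6.33 in full medium, and rose by 2.10 ± 0.16 (adjusted p = 3.1e-08). Cth, which makes cysteine from cystathionine, rose by 1.88 ± 0.28 (adjusted p = 0.000267). Asns, asparagine synthetase, had 10.20, 10.00 and 10.08 in low leucine and 9.04, 9.35 and 9.20 in full medium, a rise of 0.90 ± 0.22 (adjusted p = 0.0285). Chac1, which degrades glutathione, rose by 0.59 (adjusted p = 0.0387). The calls of Asns and Chac1 ended when any 1 of the 6 arrays was left out (adjusted p up to 0.134 and 0.188), although the arrays of the groups did not overlap for either. The list's count was 9 without low-leucine replicate 2, full-medium replicate 1 or full-medium replicate 3, and 25 when only the 6 arrays were fitted.

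**Figure D2:**
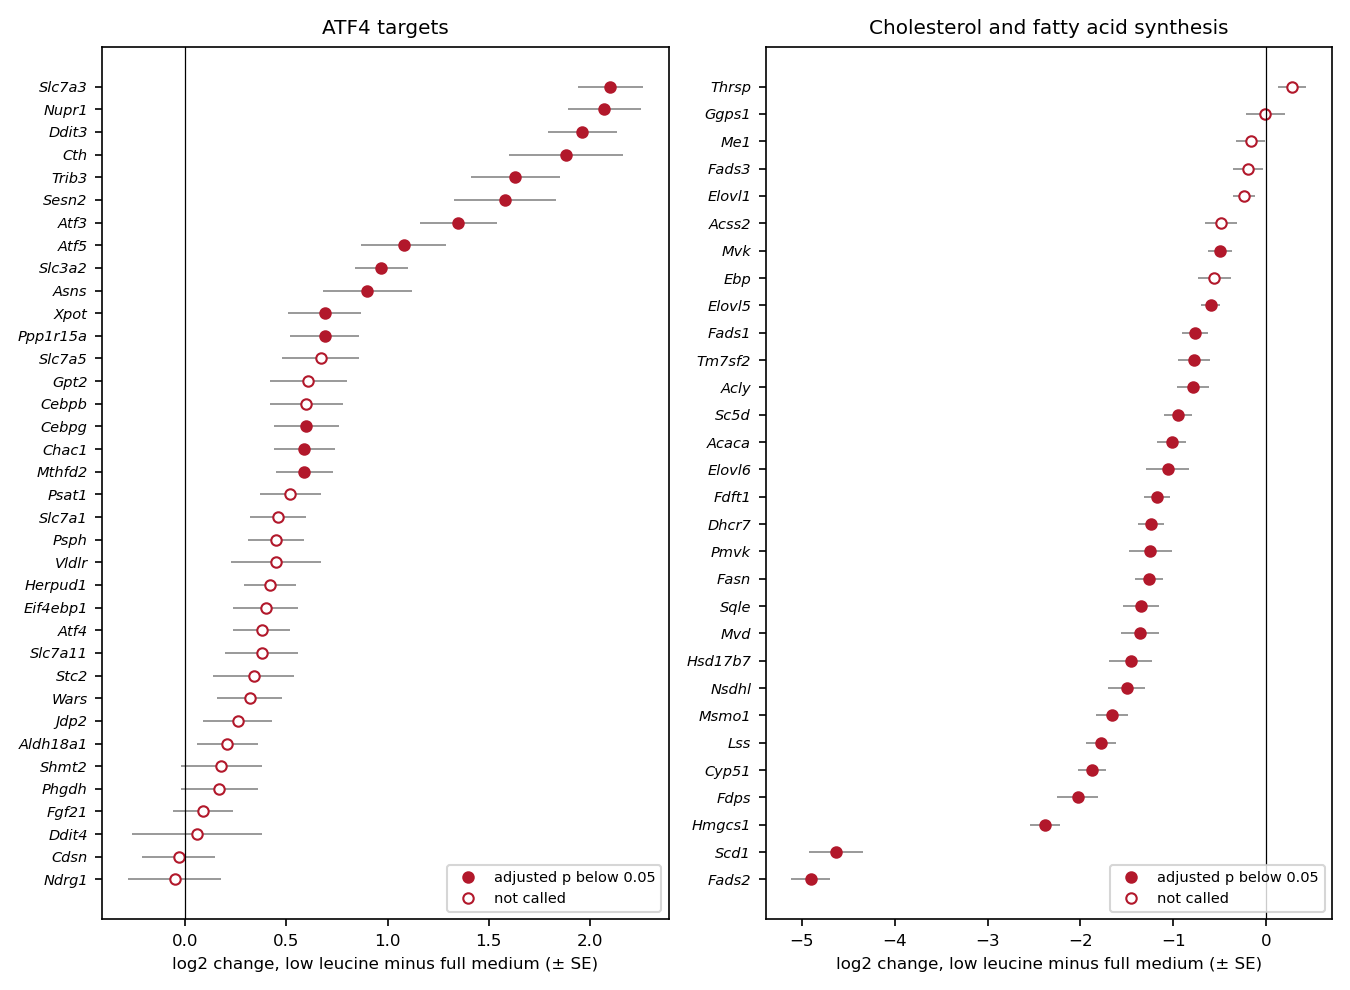
Log2 change (horizontal axis, low leucine minus full medium, bars ± SE) of the 36 tested ATF4 targets (left) and of the 30 tested genes of cholesterol and fatty acid synthesis (right). Filled points passed the adjusted p of 0.05; 15 filled points lie right of 0 on the left and 23 lie left of 0 on the right.

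Of the leucine exchanger's chains, the heavy chain rose and the light chain did not pass the test. Slc3a2, the heavy chain of the leucine exchanger, stood at 10.54, 10.60 and 10.58 in low leucine, against 9.44, 9.70 and 9.65 in full medium, and rose by 0.97 ± 0.13 (adjusted p = 8.8e-05). Its light chain Slc7a5 had 10.85, 10.92 and 10.92 in low leucine and 10.08, 10.32 and 10.29 in full medium, a difference of 0.67 that missed the threshold (adjusted p = 0.0609) although the arrays did not overlap; it passed with dim genes set aside and when only the 6 arrays were fitted. Slc1a4, which carries alanine, serine and cysteine rather than leucine, rose by 0.98 ± 0.19 (adjusted p = 0.00381). In all, 3 of 15 leucine and neutral amino acid transporters were higher and 0 lower, with a median of 0.07. Lars, the leucyl-tRNA synthetase that also senses leucine, was 0.43 higher without passing the test (adjusted p = 0.199), and 3 of 19 cytosolic tRNA synthetases were called, all higher, a count of 0 or 1 when any 1 of the 6 arrays was left out. Of 19 genes of branched-chain amino acid breakdown, only Bcat1, the cytosolic transaminase that acts on leucine, was called; it rose by 0.64, and the call ended when any 1 of the 6 arrays was left out (adjusted p up to 0.18). Its mitochondrial counterpart Bcat2 differed by -0.14 (adjusted p = 0.84).

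The 3 Sestrin genes went different ways. Sesn2, whose protein binds leucine and is an ATF4 target, stood at 8.07, 7.90 and 8.05 in low leucine, against 5.80, 7.03 and 6.46 in full medium, and rose by 1.58 ± 0.25 (adjusted p = 0.000482). Sesn1, a target of p53 and FoxO factors, had 6.75, 6.77 and 6.68 in low leucine and 7.52, 7.65 and 7.67 in full medium, a change of -0.88 ± 0.15 (adjusted p = 0.000929). Sesn3 rose by 0.64 ± 0.14 (adjusted p = 0.00897); its call ended without low-leucine replicate 2 or 3 or full-medium replicate 2 (adjusted p up to 0.0609). These were the 3 called genes among 39 of leucine sensing and mTORC1 control, whose median was -0.05. Castor1, the arginine sensor of the same pathway, differed by -0.69 (adjusted p = 0.0863). Of 27 ribosome biogenesis genes and 26 cytosolic ribosomal protein genes, limma called 0; 3 and 5 of them had an unadjusted p below 0.05, and their medians were -0.04 and 0.12. Myc, the growth transcription factor, had 10.35, 10.22 and 10.23 in low leucine and 10.32, 10.35 and 10.63 in full medium (adjusted p = 0.615).

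Cholesterol synthesis had the highest share of called members among the 41 lists: 15 of 17 tested enzymes were lower in low leucine (1.56% of all genes were) and 0 higher, with a median change of -1.35. The fall was not particular to low leucine: 0 of the 17 were called against low arginine or low lysine. Their mean level was 7.23 to 7.27 in low leucine, 6.98 to 7.06 in low arginine and 7.09 to 7.48 in low lysine. In full medium it was 8.36 to 8.64. Hmgcs1, which makes the precursor of mevalonate, stood at 8.07, 7.81 and 7.96 in low leucine, against 10.12, 10.44 and 10.42 in full medium, a change of -2.38 ± 0.16 (adjusted p = 1.71e-09). Its promoter is printed because it was the only one of 14 list members with a promoter sequence to hold TCACNCCAC, the letters of a sterol regulatory element (7.14%, against 243 of 16990 genes tested, 1.43%). The match, in capitals, begins at -137.
Hmgcs1 (chr13:119690101-119690400, plus strand): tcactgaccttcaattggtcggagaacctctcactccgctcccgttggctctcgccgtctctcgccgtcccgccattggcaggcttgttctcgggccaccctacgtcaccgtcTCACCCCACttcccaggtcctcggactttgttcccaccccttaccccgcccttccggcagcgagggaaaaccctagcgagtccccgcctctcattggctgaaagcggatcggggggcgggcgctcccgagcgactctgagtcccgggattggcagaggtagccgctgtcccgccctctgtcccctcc
That the other 13 lack these exact letters says only that they are not in this window. Fdps, farnesyl diphosphate synthase, had 7.92, 7.75 and 8.09 in low leucine and 9.74, 10.08 and 10.03 in full medium (-2.03 ± 0.22, adjusted p = 2.98e-06). Further along the pathway Cyp51 changed by -1.88, Lss by -1.78 and Msmo1 by -1.66. Ebp, a sterol isomerase, differed by -0.56 (adjusted p = 0.129). Ggps1, which feeds the side branch to geranylgeranyl groups, differed by -0.01 (adjusted p = 0.996). Among 12 genes of SREBP control and cholesterol uptake, 7 were lower and 0 higher. Insig1, an SREBP target that retains SREBP in the endoplasmic reticulum, had 7.21, 6.97 and 6.94 in low leucine and 9.67, 9.70 and 9.90 in full medium, a change of -2.71 ± 0.16 (adjusted p = 4.67e-10). Stard4, a sterol carrier, changed by -1.67 (adjusted p = 2.61e-05).

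Fatty acid enzymes fell too, with 8 of 13 lower and 0 higher (median -0.77). Against low arginine 1 of the 13 was called lower in low leucine, and against low lysine 0 were called. Both desaturases named here were among the 8. Fads2 stood at 4.97, 4.17 and 4.78 in low leucine, against 9.45, 9.74 and 9.43 in full medium, a change of -4.90 ± 0.21 (adjusted p = 7.37e-13). Scd1, which makes monounsaturated fatty acids, had 4.60, 4.96 and 5.34 in low leucine and 9.23, 9.73 and 9.82 in full medium, a change of -4.63 ± 0.29 (adjusted p = 7.46e-10). On every low-leucine array both genes lay below the median of all genes tested (5.58 to 5.67), and no background level is at hand for them, so their size is not read as a fold or ranked. Of the chain-building enzymes, Fasn, fatty acid synthase, changed by -1.26 (adjusted p = 1.81e-05) and Acaca, acetyl-CoA carboxylase, by -1.02 (adjusted p = 0.000503). Idh1, which makes cytosolic NADPH, changed by -2.02 (adjusted p = 2.23e-06).

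The IL-4/IL-10 arrays share the numbering run of full medium and differ from it in treatment. Fads2 stood at 4.22, 4.99 and 4.70 and Scd1 at 5.12, 5.20 and 5.84 on them. Hmgcs1 had 7.46, 7.53 and 7.85 there. Idh1 had 5.45, 5.72 and 5.30 in low leucine, against 7.49, 7.30 and 7.09 on the IL-4/IL-10 arrays and 7.56, 7.60 and 7.36 in full medium. The part of the numbering run in the lipid differences was not tested.

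Kcnma1 had another pattern over groups. This gene, which encodes the pore of the calcium-activated BK potassium channel, stood at 5.54, 5.50 and 5.56 in low leucine, against 11.01, 11.36 and 9.44 in full medium, a change of -5.07 ± 0.41 (adjusted p = 5.22e-08), with all low-leucine values below the arrays' median. It had 10.68, 10.54 and 8.63 on the IL-4/IL-10 arrays. In low arginine it had 5.95, 5.43 and 5.72, in low lysine 5.63, 5.49 and 5.44, and in low leucine without antigen 6.19, 5.70 and 5.79. Kcnma1 was therefore high on the arrays of one numbering run and low on those of the other that are given here, with or without antigen, so medium and run cannot be told apart for it.

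**Figure D3:**
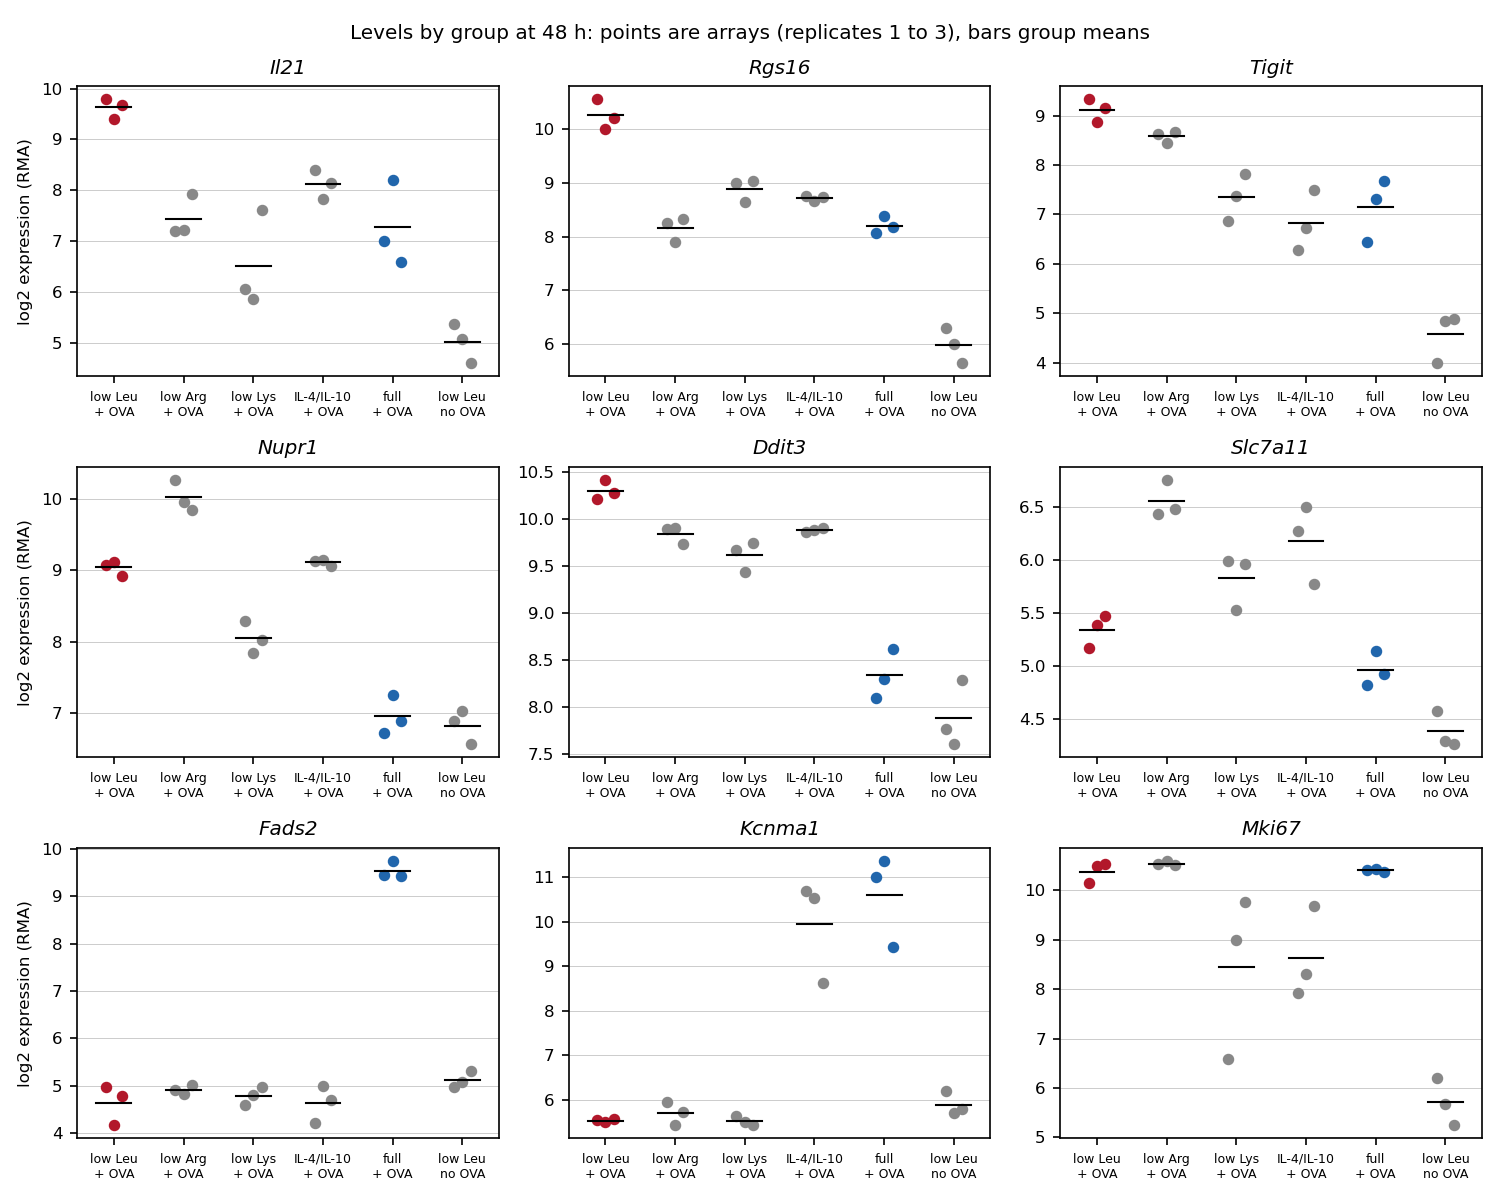
Log2 expression (vertical axis, RMA scale) of 9 genes on each array of 6 groups at 48 h; red points are low leucine with antigen, blue points full medium with antigen, grey points the other groups, and bars are group means. Il21 and Rgs16 are highest in low leucine, Fads2 is high only in full medium among the groups drawn, and Kcnma1 is high in full medium and after IL-4/IL-10.

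Glycolysis and hypoxia genes leaned lower with few calls. Of 19 genes tested for the glycolysis list 18 changes were negative (median -0.40), yet 2 passed, both lower. They were Aldoc (-1.03, adjusted p = 0.0101), an aldolase, and Pfkl (-0.82, adjusted p = 0.013), a phosphofructokinase subunit. Both calls ended without low-leucine replicate 2 or full-medium replicate 2, and Aldoc also lost its call without full-medium replicate 3 and Pfkl without full-medium replicate 1. The fit of the 6 arrays alone called 10 of the 19. The list member Gpi1 was matched by a synonym to Pigq, which is not a glycolysis enzyme. The counts and the median of this list include Pigq. Hk2, hexokinase 2, had 8.40, 8.08 and 8.17 in low leucine and 8.61, 8.59 and 8.73 in full medium (-0.42, adjusted p = 0.371), and the glucose importer Slc2a1 differed by -0.51 (adjusted p = 0.135). Egln3, an oxygen-sensing prolyl hydroxylase induced by hypoxia, had 9.03, 8.07 and 9.01 in low leucine and 9.97, 10.26 and 10.29 in full medium, a change of -1.47 (adjusted p = 0.0133). Its call ended without low-leucine replicate 2 or full-medium replicate 2 or 3 (adjusted p up to 0.124).

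Few genes of cell division passed the test against full medium in the fit of all groups, and more did in the fit of the 6 arrays. Mki67, a marker of cycling cells, stood at 10.14, 10.49 and 10.53 in low leucine, against 10.42, 10.44 and 10.38 in full medium (adjusted p = 0.993). Cdk1, the mitotic kinase, had 9.06, 9.22 and 9.45 in low leucine and 9.74, 9.88 and 9.77 in full medium, a difference of -0.56 ± 0.44 that did not pass (adjusted p = 0.703). The groups did not overlap, and Cdk1 was called lower when only these 6 arrays were fitted. Only Cenpa, the centromeric histone, was called among 35 genes of G2/M and mitosis: it changed by -1.03 ± 0.19 (adjusted p = 0.00178). In all 32 of these 35 changes were negative, with a median of -0.43, and the fit of the 6 arrays alone called 19 of them lower. Of 34 genes of DNA replication and the G1/S transition 3 were lower and 0 higher; all 34 changes were negative, with a median of -0.37. One of the 3, Ccne1, which encodes cyclin E1, had 8.10, 8.23 and 8.30 in low leucine and 8.92, 8.89 and 8.85 in full medium (-0.68, adjusted p = 0.0409), a call that ended when any 1 of the 6 arrays was left out (adjusted p up to 0.168). The count of 3 was 0 or 1 in those leave-outs, 0 with arrays centred on their median and 17 when only the 6 arrays were fitted. Among 18 p53 targets 7 were higher and 1, Sesn1, lower, with a median of 0.51. Zmat3, an RNA-binding protein that restrains growth, had 8.37, 8.07 and 8.52 in low leucine and 7.13, 7.42 and 6.92 in full medium (1.17 ± 0.21, adjusted p = 0.00159). Trp53inp1, which promotes p53 activity, rose by 1.00 and the death receptor gene Fas by 0.92. Cdkn1a, the cell cycle inhibitor p21, rose by 1.23 (adjusted p = 0.016), but not without low-leucine replicate 1 or 3 or full-medium replicate 1 or 3 (adjusted p up to 0.115). Leaving out each of those 4 arrays reduced the 7 higher p53 targets to 4.

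Genes of inhibitory receptors and T cell anergy (unresponsiveness) were higher where they were called. Of 19, 5 rose (1.15% of all genes did) and 0 fell, with a median of 0.05 over the list. Besides Tigit these were Lag3, Cd200, Btla and Cblb. Lag3, which binds MHC class II, stood at 10.47, 10.22 and 10.32 in low leucine, against 8.76, 9.32 and 9.21 in full medium (1.24 ± 0.20, adjusted p = 0.000486). Cd200 had 10.76, 10.37 and 10.50 in low leucine and 9.22, 9.53 and 9.39 in full medium (1.16 ± 0.16, adjusted p = 8.8e-05). Btla, which binds HVEM, rose by 0.95 (adjusted p = 0.000376). Cblb, a ubiquitin ligase of T cell tolerance, rose by 0.57 (adjusted p = 0.00809), a call that ended without full-medium replicate 1 (adjusted p = 0.0807).

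Several activation genes rose. The early activation gene Cd69 stood at 10.47, 10.59 and 10.62 in low leucine, against 9.39, 9.30 and 9.46 in full medium (1.18 ± 0.13, adjusted p = 3.12e-06). Irf4, a transcription factor that scales with receptor signal, rose by 0.95 and the chemokine receptor gene Ccr8 by 1.50. Il2ra, the high-affinity chain of the interleukin-2 receptor, had 11.39, 11.30 and 11.45 in low leucine and 11.25, 11.19 and 11.38 in full medium, a difference of 0.10 ± 0.13 (adjusted p = 0.851). It was far lower without antigen, at 5.52, 5.80 and 6.0 in low leucine. Of 25 activation genes 3 rose and 1 fell, with a median of 0.14, and the fit of the 6 arrays alone called 7 and 5. The one that fell was Tfrc, the transferrin receptor gene (-0.67, adjusted p = 0.0447), whose call ended without any 1 of the 6 arrays other than low-leucine replicate 3 (adjusted p up to 0.257). Cd5, a receptor that tunes T cell receptor signals, rose by 0.86 (adjusted p = 0.000829), and the AP-1 member Fosl2 by 1.06 (adjusted p = 0.00182).

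Helper cytokine genes split. Of 25, 4 were higher and 2 lower, with a median of 0.21, and the fit of the 6 arrays alone called 7 and 3. Besides Il21, Tnfsf8, the ligand of CD30, stood at 10.75, 10.42 and 10.57 in low leucine, against 9.17, 9.11 and 9.43 in full medium (1.34 ± 0.15, adjusted p = 4.48e-06). Il10 rose by 0.99 (adjusted p = 0.0101) and Il4 by 0.94 (adjusted p = 0.031), from levels near the low end of the scale: Il10 had 5.52, 5.11 and 5.75 in low leucine and 4.39, 4.58 and 4.44 in full medium. The Il10 call ended without low-leucine replicate 3 or full-medium replicate 1, and the Il4 call without low-leucine replicate 1 or any 1 full-medium array (adjusted p up to 0.0797 and 0.235). Il2 had 9.92, 9.85 and 10.12 in low leucine and 9.54, 8.74 and 8.55 in full medium, a difference of 1.02 that missed the threshold (adjusted p = 0.0588). It was called without full-medium replicate 1. The lower ones were the chemokine gene Ccl5 (-0.95) and the lymphotoxin gene Lta (-0.92), and 1 of them was called when any array other than full-medium replicate 2 was left out. Ifng, the interferon-gamma gene, had 6.04, 5.72 and 5.75 in low leucine and 6.43, 6.64 and 7.22 in full medium (-0.92, adjusted p = 0.278).

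More cytokine receptor genes fell than rose. Of 20 cytokine receptor and SOCS genes 6 were lower and 1 higher (median -0.11), and 3 were lower without full-medium replicate 2. The higher one was Il12rb1, a receptor chain for interleukin-12 (0.75, adjusted p = 0.014), whose call ended without low-leucine replicate 1 or full-medium replicate 1 (adjusted p up to 0.0935). Il2rb, the shared beta chain of the interleukin-2 and interleukin-15 receptors, stood at 9.98, 9.84 and 10.27 in low leucine, against 10.96, 10.90 and 11.12 in full medium (-0.96 ± 0.20, adjusted p = 0.00573). Il18r1, a receptor chain for interleukin-18, changed by -0.96 ± 0.15 (adjusted p = 0.000524). Eomes, a T-box factor of cytotoxic and memory cells, had 5.38, 5.79 and 5.45 in low leucine and 7.12, 7.58 and 7.48 in full medium (-1.85 ± 0.19, adjusted p = 1.32e-06). Sh2d1a, the adaptor SAP that helper cells need to help B cells, changed by -1.01 (adjusted p = 0.00265). It was the 1 lower gene among 16 of regulatory and follicular helper T cells, of which 2 were higher, Il21 and Bcl6, and the list's median was -0.14. Bcl6, the lineage factor of follicular helper cells, had 7.93, 8.05 and 7.49 in low leucine and 7.25, 7.10 and 7.0 in full medium (0.71, adjusted p = 0.0253). Its call ended without low-leucine replicate 1 or 2 or full-medium replicate 2 or 3 (adjusted p up to 0.17), and the fit of the 6 arrays alone called 2 higher and 5 lower genes of that list. S1pr1, the receptor by which T cells leave lymph nodes, had 6.18, 6.76 and 7.24 in low leucine and 8.33, 7.97 and 7.99 in full medium (-1.37 ± 0.22, adjusted p = 0.000482). It was one of 4 lower genes among 20 of naive and quiescent T cells, a count of 2 without low-leucine replicate 2 or full-medium replicate 3 and of 6 when only the 6 arrays were fitted. Another of the 4, Pik3ip1, a brake on PI3 kinase, changed by -1.0 (adjusted p = 0.00321). Klf2, the factor that maintains quiescence, differed by -0.24 (adjusted p = 0.706).

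Interferon-response genes were lower where they changed, 6 of 23 with 0 higher and a median of -0.33. The list's mean level was 6.29 to 6.36 in low leucine, 6.54 to 6.78 in full medium and 6.66 to 6.81 on the IL-4/IL-10 arrays. It was 6.35 to 6.57 in low arginine, 6.19 to 6.26 in low lysine and 6.12 to 6.24 in low leucine without antigen. Medium and numbering run cannot be told apart for this list. Stat2, a subunit of the type I interferon-activated transcription factor, stood at 7.27, 7.13 and 7.47 in low leucine, against 8.08, 8.12 and 8.32 in full medium (-0.88 ± 0.17, adjusted p = 0.00266). Ifit1, an antiviral RNA-binding protein, changed by -0.83 (adjusted p = 0.00418), a call that ended with quantile normalization. The count of 6 became 3 with quantile normalization or without full-medium replicate 1, and 2 without low-leucine replicate 2 or full-medium replicate 3. Ifit1bl1, an Ifit family member, had 3.41, 4.01 and 3.82 in low leucine and 7.0, 5.61 and 6.94 in full medium (-2.76, adjusted p = 1.59e-06). Its low-leucine values lay below those arrays' medians of all genes tested (5.58 to 5.67), so the size is not read as a fold. Mndal and Ifi209, of the interferon-inducible Ifi200 family, changed by -2.01 and -2.11; these neighbours are near copies, and how far their probes are shared was not tested.

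Some of the lower genes are best known in antigen-presenting cells. Ccl22, a chemokine of activated macrophages and dendritic cells, stood at 5.56, 6.43 and 6.41 in low leucine, against 8.51, 8.18 and 8.56 in full medium (-2.28 ± 0.31, adjusted p = 8.8e-05). Arg1, the arginase of alternatively activated macrophages, had 6.16, 6.04 and 6.46 in low leucine and 8.19, 7.84 and 7.41 in full medium (-1.59 ± 0.24, adjusted p = 0.000273). It was highest on the IL-4/IL-10 arrays, at 9.46, 10.29 and 9.21. In low arginine it had 6.24, 6.10 and 5.83, in low lysine 6.12, 6.71 and 6.13, and in low leucine without antigen 6.56, 6.48 and 6.51. As for Kcnma1, medium and numbering run cannot be told apart for Arg1. Chil3, another marker of that state, had 4.82, 5.67 and 5.34 in low leucine and 5.22, 4.71 and 5.30 in full medium (adjusted p = 0.844). Lyz2, the macrophage lysozyme, had 10.09, 9.08 and 9.32 in low leucine and 10.65, 10.55 and 10.26 in full medium (-0.99, adjusted p = 0.0397). Its call ended without any 1 of the 6 arrays other than low-leucine replicate 1 (adjusted p up to 0.259). That of Aif1 (-0.86, adjusted p = 0.0119) ended without low-leucine replicate 1 or full-medium replicate 2 or 3 (adjusted p up to 0.0666). Of 17 alternatively activated macrophage markers 3 were lower and 0 higher, with a median of 0.02. The part of macrophage RNA in these differences was not tested.

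**Figure D4:**
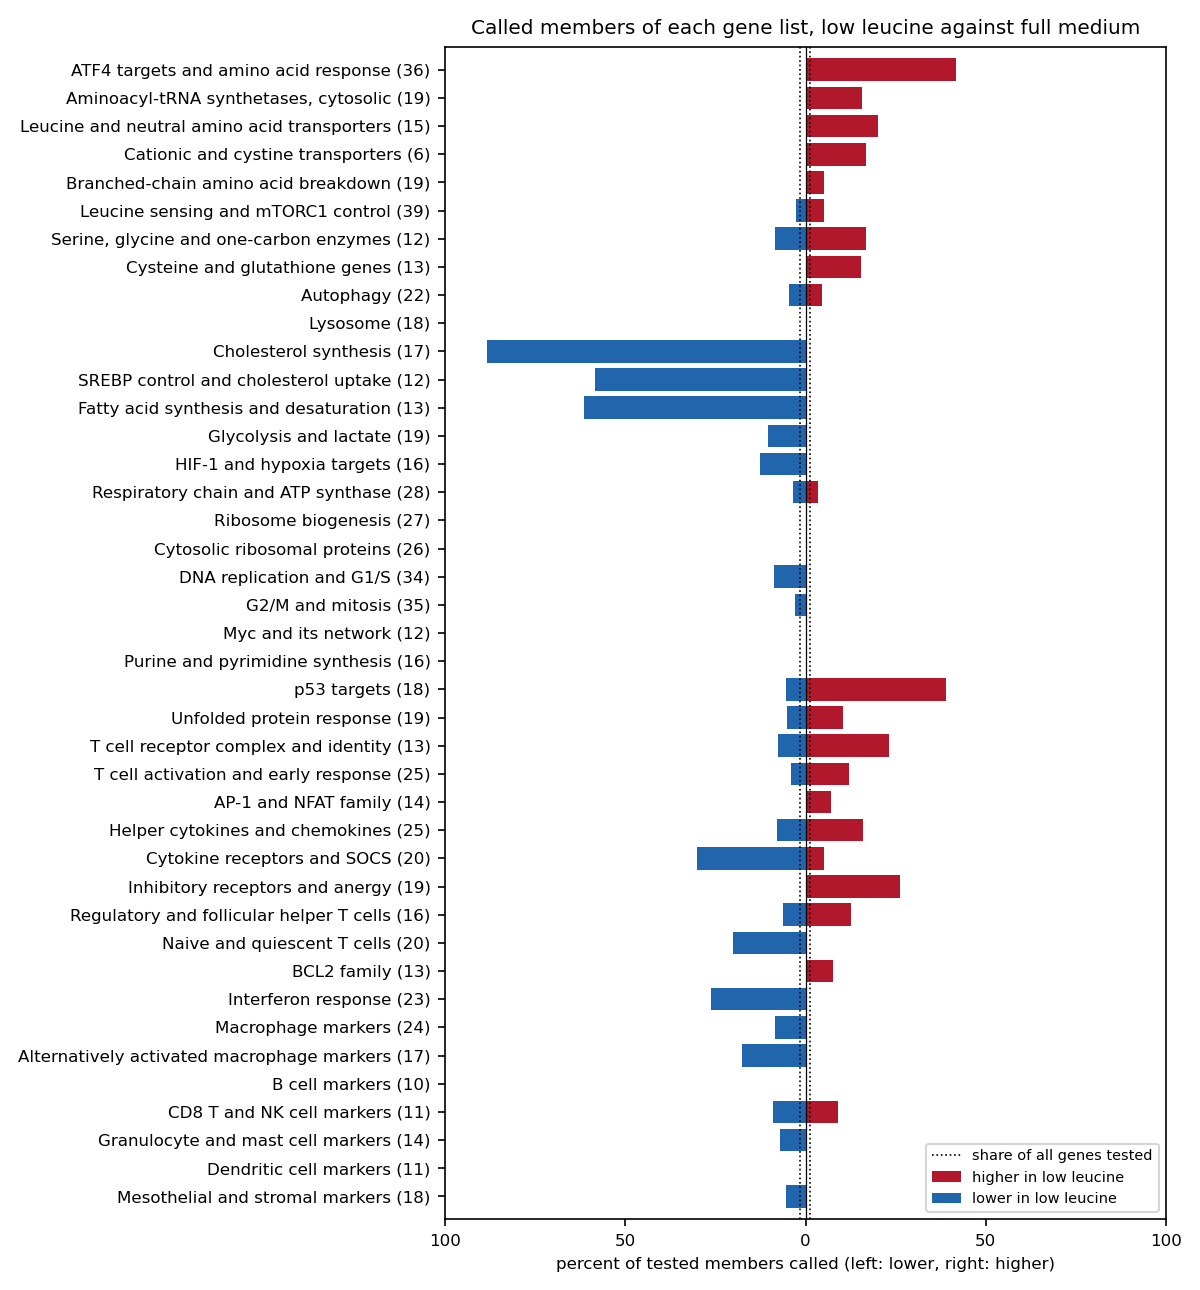
Percent of tested members of each of 41 gene lists called higher (red, to the right) or lower (blue, to the left) in low leucine than in full medium; the number of tested members stands in brackets. The dotted lines mark 1.15% and 1.56%, the shares of all genes called higher and lower; 15 of 17 cholesterol synthesis genes lie to the left and 15 of 36 ATF4 targets to the right.

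The 3 low-amino-acid media were compared directly, without the full-medium arrays. Low leucine differed from low arginine at 158 genes (0.712% of those tested), 106 higher (0.478%) and 52 lower (0.234%). Same-numbered arrays of these groups deviated together. A fit of these 6 arrays called 879 genes without the replicate number and 1404 with it as a block, 890 higher and 514 lower. List counts with the block are to be read beside those larger totals. The count was 48 to 78 when any 1 of the 6 arrays was left out, and quantile normalization gave 90 higher and 83 lower. Low leucine differed from low lysine at 416 genes (1.88%), 352 higher (1.59%) and 64 lower (0.289%). That count was 1414 without low-lysine replicate 3, and 84 to 180 when any 1 of the other arrays was left out. Quantile normalization gave 123 higher and 67 lower, and the fit of the 6 arrays alone called 50 genes, 41 higher and 9 lower.

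Most genes called against full medium were called against neither other low medium: 175 of the 256 higher and 307 of the 347 lower ones. A missing call does not show that the media were equal. Some genes differed in low leucine from each of the 3 other media. The 3 comparisons share the low-leucine arrays, so their values are given side by side. The genes described here were picked from the 17 higher and 5 lower ones called in all 3. Il21 had 7.19, 7.21 and 7.92 in low arginine and 6.05, 5.86 and 7.61 in low lysine, so that low leucine was higher by 2.19 ± 0.37 and 3.12 ± 0.37 (adjusted p = 0.00472 and 0.000238). Rgs16 had 8.26, 7.90 and 8.32 in low arginine and 9.0, 8.65 and 9.04 in low lysine, below low leucine by 2.10 and 1.36 (adjusted p = 5.1e-07 and 0.000238). Neither gene's low-leucine arrays overlapped those of another medium, which for full medium the naming rule required. Of all genes tested, 20.1% had no overlap with low arginine and 20.9% none with low lysine.

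Some other genes called against all 3 media follow. Sema4f, a semaphorin, stood at 7.48, 6.67 and 7.32 in low leucine, against 5.89, 5.75 and 5.83 in low arginine and 6.03, 6.28 and 6.18 in low lysine. Plek, a protein kinase C substrate of blood cells, had 8.50, 8.08 and 8.14 in low leucine, against 7.18, 7.08 and 7.15 in low arginine and 7.35, 7.45 and 7.25 in low lysine. Fam171b was higher in low leucine by 1.68 than in low arginine and by 1.64 than in low lysine. On the lower side, St6gal1, which adds sialic acid to galactose on N-glycans, had 7.54, 7.06 and 7.53 in low leucine, against 8.18, 8.16 and 8.32 in low arginine and 8.24, 8.42 and 8.02 in low lysine. Mmp12, the macrophage metalloelastase, differed by -1.40 from low arginine and -1.34 from low lysine, with 7.62, 6.76 and 7.13 in low leucine, against 8.71, 8.66 and 8.34 in low arginine and 8.69, 8.91 and 7.94 in low lysine. These 5 genes kept both calls when any 1 array was left out, and all 5 lost the call against low lysine when only those 6 arrays were fitted. Adh1, Osr2, Il12rb1, Gja1, St8sia6, Rgcc and Ptger4 did so for 1 or neither of the 2 media.

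ATF4 targets also differed between low leucine and low arginine. Of 36, 5 were lower in low leucine and 0 higher, or 8 lower and 2 higher with the replicate block, with a median of -0.13. Nupr1 had 10.26, 9.95 and 9.85 in low arginine and was lower in low leucine, at a difference of -0.98 (adjusted p = 0.00724), a call that ended without low-arginine replicate 1 (adjusted p = 0.0684). Slc7a11, the cystine importer, stood at 5.17, 5.38 and 5.47 in low leucine, against 6.43, 6.75 and 6.48 in low arginine, a difference of -1.21 ± 0.18 (adjusted p = 0.00246). Against full medium Slc7a11 differed by 0.38 (adjusted p = 0.414). Its low-leucine values lay below those arrays' medians of all genes tested (5.58 to 5.67), so its differences are not read as folds. Against low lysine, at 8.29, 7.85 and 8.02, Nupr1 was 0.98 higher in low leucine (adjusted p = 0.0056), though not with quantile normalization. The order of Nupr1 was thus low arginine, low leucine, low lysine and full medium, with no overlap between neighbours.

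Cytokine and hypoxia genes also differed from low arginine. Of 25 helper cytokine genes 4 were higher in low leucine and 0 lower, or 8 higher and 2 lower with the replicate block. Il2 had 7.83, 8.02 and 8.86 in low arginine and 10.55, 10.51 and 11.02 in low lysine, so low leucine lay between them; it was 1.73 ± 0.29 above low arginine (adjusted p = 0.00426) and differed by -0.73 from low lysine without passing the test (adjusted p = 0.202). Il13 had 8.91, 8.21 and 9.03 in low leucine, against 6.92, 6.96 and 7.44 in low arginine (1.61, adjusted p = 0.0103), a call that ended without low-leucine replicate 1 or 3 or low-arginine replicate 1 or 2 (adjusted p up to 0.0767). Egln3 had 5.96, 6.0 and 6.26 in low arginine, 2.63 ± 0.33 below low leucine (adjusted p = 0.000352). It had 7.29, 8.03 and 9.09 in low lysine, a range that overlaps low leucine. Klk1, a tissue kallikrein of a large gene family whose probes may be shared, had 7.49, 5.37 and 6.49 in low leucine, against 3.52, 4.06 and 3.51 in low arginine and 3.30, 4.15 and 3.62 in low lysine. It was 2.76 higher in low leucine than in either, and its full-medium arrays, at 5.36, 5.38 and 6.40, overlapped low leucine. Its low-arginine and low-lysine values lay below those arrays' medians of all genes tested (5.62 to 5.71), so the size is not read as a fold.

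Genes of cell division were called higher in low leucine than in low lysine, in numbers that changed with every array left out and with the fit. Of 35 G2/M genes 16 were higher in low leucine and 0 lower, with a median of 1.32, against -0.02 over all genes. Their mean level was 8.17, 8.45 and 8.55 on the low-leucine arrays in ascending order, against 6.11, 7.10 and 8.07 on the low-lysine arrays, so the low-lysine arrays spanned the wider range. Mki67 had 6.58, 8.99 and 9.76 in low lysine, 1.94 ± 0.49 below low leucine (adjusted p = 0.0418), and Ndc80, a kinetochore subunit, was 2.07 higher in low leucine (adjusted p = 0.00798). The count of 16 became 35 without low-lysine replicate 3, and 0 to 4 when any 1 of the other arrays was left out. It was 5 with quantile normalization, 25 with genes of low level set aside, and 0 when only the 6 arrays were fitted. Nkg7, a granule membrane protein, kept its call in these leave-outs: it stood at 9.45, 8.49 and 8.74 in low leucine, against 7.08, 6.51 and 7.46 in low lysine (1.88 ± 0.25, adjusted p = 0.000238).

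Tigit was higher in low leucine than in low lysine, and its difference from low arginine did not pass the test. It had 6.86, 7.38 and 7.82 in low lysine, 1.77 ± 0.33 below low leucine (adjusted p = 0.00658), a call that ended without low-lysine replicate 1 (adjusted p = 0.0576). In low arginine it had 8.63, 8.44 and 8.66, and the difference from low leucine was 0.54 ± 0.33 (adjusted p = 0.678). Insig1 was lower in low leucine than in low lysine, which had 7.83, 7.99 and 8.31 (-1.0, adjusted p = 0.00253), a call lost when only the 6 arrays were fitted. Among the lower genes against low lysine Stra6, a retinol transporter, differed by -1.39, Gpr183, an oxysterol receptor that guides lymphocytes, by -1.13, and the odorant receptor genes Olfr68 and Olfr43 by -2.51 and -1.32. Odorant receptors form a large family with like sequences, so those values are uncertain.

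The low-leucine arrays made without antigen are given as a description, with no test. Il21 had 9.40 to 9.79 in low leucine with antigen, against 5.36, 5.07 and 4.60 in low leucine without it. Ddit3 had 10.21 to 10.41 with antigen and 7.77, 7.61 and 8.29 without it. Nupr1 had 8.92 to 9.11 with antigen and 6.89, 7.03 and 6.57 without it. These 3 genes were named for high values on the same low-leucine arrays with antigen, so their lower levels without antigen are no separate support. The share of all genes without overlap between these groups was not computed. The mean level of the 36 ATF4 targets was 8.41 to 8.51 in low leucine with antigen, against 7.65 to 7.86 in full medium with antigen and 6.63 to 6.64 in low leucine without it. With antigen, low arginine (8.62 to 8.78), low lysine (8.22 to 8.38) and IL-4/IL-10 (8.36 to 8.67) also stood above full medium.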

How the data were processed

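Total RNA (100 ng per sample) from sorted CD4+ T cells was hybridised to MoGene-2_0-st arrays, 1 array per sample. The authors deposited log2 values per probe set, made by RMA in Affymetrix Expression Console 1.1, per the submitters' processing notes. RMA corrects background, quantile-normalizes and summarizes probes, so values are relative within the arrays processed together. Which arrays those were and the genome build are not given in the sources used here. The 48 h table held 41345 probe sets on 23 arrays. Array medians were 5.44 to 5.75, array correlations 0.86 to 0.9815, and 0 pairs of arrays were identical. The number of arrays limits the precision.

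By the platform annotation 23521 probe sets named 1 gene, 1814 several and 16010 none. Only those with 1 gene were used, with symbols updated through Entrez gene IDs for 23328. A gene with more than 1 probe set (1082 genes) was taken from the one with the highest mean, which gave 22180 genes.

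All 8 groups at 48 h were fitted in one model with limma 3.58.1 in R 4.3.3 (lmFit, and eBayes with an intensity trend), and p-values were adjusted by Benjamini and Hochberg over all genes at 0.05. "Called" means an adjusted p below 0.05. Scripts were tested on simulated data. Tables and plots used Python 3.11.15, pandas 2.3.3, numpy 2.4.6 and matplotlib 3.10.9.

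The comparison, the 41 gene lists (784 of 861 members tested) and the rule for named genes were chosen with earlier results of these data known. The rule took the 12 largest rises and 12 largest falls among called genes whose arrays did not overlap, up to 5 members per list by size of change with called ones first, a fixed set of names, and 6 genes in each direction against low arginine and against low lysine. Atf3, Atf5, Ebp, Ggps1, Lta, Il12rb1, Sema4f, Plek, St6gal1, Gja1, St8sia6, Rgcc, Ptger4 and Il13 were named after their values were seen. Some genes of the fixed set and lists are not reported here, and the 72 h arrays were not used.

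Pairing by replicate number was checked on deviations from group means over the 5000 genes with the highest mean. Same-numbered low-leucine and low-arginine arrays correlated at 0.35, 0.29 and 0.39, every pair above 0.1, so the blocked values stand beside that comparison. The correlations were 0.37, -0.0 and 0.24 with full medium and 0.12, -0.04 and 0.15 with low lysine, where the numbers did not pair the arrays. The alternatives tried were quantile normalization, centring on array medians, a filter on dim genes, the mean of probe sets, no intensity trend, only the 2 groups compared, the replicate block and leaving out each array. Counts of called list members under these settings were added after seeing the data.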

Additional observations from a re-analysis of the deposited data

Results flagged for a closer look

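The effect of low leucine was set against that of 2 other scarce amino acids under the same antigen, and the genes below differed by limma's direct contrast of the media (adjusted p below 0.05 over all genes). Values are log2 differences, low leucine minus the other medium. Higher in low leucine than in low arginine and in low lysine, in that order, were Il21 by 2.19 and 3.12, Rgs16 by 2.10 and 1.36, Adh1 by 0.86 and 1.21 and Osr2 by 1.58 and 1.52. So were Fam171b by 1.68 and 1.64, Il12rb1 by 0.79 and 0.81, Sema4f by 1.34 and 1.00 and Plek by 1.10 and 0.89. So were Gja1 by 1.25 and 1.82 and Klk1 by 2.76 and 2.76. Lower in low leucine than in both, with differences in the same order, were St6gal1 at -0.84 and -0.85, Mmp12 at -1.40 and -1.34 and St8sia6 at -0.75 and -1.12. So were Rgcc at -0.79 and -0.92 and Ptger4 at -0.52 and -0.57. 

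Against low arginine alone the differences were positive for Hk2 0.86, Egln3 2.63, Cd200 0.88 and Il4 1.02. They were also positive for Il2 1.73 and Il13 1.61. They were negative for S1pr1 -0.95, Mndal -1.21 and Slc7a11 -1.21. Against low lysine alone the differences were positive for Tigit 1.77, Ajuba 1.65, Ddit3 0.68, Sesn3 0.55 and Mki67 1.94. Further positive differences were those of Cenpa 0.87, Trp53inp1 0.66, Cblb 0.49, Cd5 0.66 and Fosl2 1.46. Further positive differences were those of Ndc80 2.07 and Nkg7 1.88. Negative against low lysine were Insig1 -1.0, Eomes -0.90, Ifit1bl1 -1.54, Stra6 -1.39, Gpr183 -1.13, Olfr68 -2.51 and Olfr43 -1.32. Nupr1 differed in opposite directions, at -0.98 against low arginine and 0.98 against low lysine. Of the named genes called against low arginine, 12 of 25 kept the call when any 1 of the 6 arrays was left out, and of those called against low lysine 19 of 35 did. When only the 2 groups were fitted 22 of those 35 lost the call against low lysine, and 20 did with the replicate block; against low arginine 0 of 25 did in either fit. A difference called against 1 medium and not the other was not tested between these media.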

How the results depend on the processing

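The 603 genes called between low leucine and full medium became 1654 (666 higher, 988 lower) when only the 2 groups were fitted and 1768 (722 higher, 1046 lower) with the replicate block, of which 594 in either fit were among the 603 in the same direction. Leaving out 1 array gave 339 to 401 genes, 162 to 178 higher and 175 to 236 lower, and 489 were called with arrays centred on their median. For low leucine against low arginine, with 158 genes called, the fit of the 2 groups gave 879 (562 higher, 317 lower), the replicate block 1404 (890 higher, 514 lower) and centring 95 (68 higher, 27 lower); quantile normalization gave 83 lower genes, and leaving out 1 array 48 to 78 genes, 28 to 50 higher and 20 to 33 lower. For low leucine against low lysine, with 416 genes called, quantile normalization gave 190 (123 higher), the filter on dim genes 653 (565 higher), the fit of the 2 groups 50 (41 higher, 9 lower) and the replicate block 77 (61 higher, 16 lower). Centring left 35 lower genes there, and leaving out 1 array gave 84 to 1414 genes, 68 to 1094 higher and 16 to 320 lower. The cause of these shifts was not tested, beyond the fewer arrays in the leave-one-out fits; the numbers do not pair the arrays of low leucine with those of full medium or low lysine, so the block there says nothing on the size of effects. Of 87 named genes called against full medium, with 601 values under the other settings, 586 kept their call and 15 lost it; with 1 array left out 447 of 522 values kept it. None of these reversed. Among the 26 named genes not called, 12 were called when only the 2 groups were fitted and with the replicate block: Slc7a5, Atf4, Lars, Castor1, Ebp, Hk2, Slc2a1, Cdk1, Il2, Ifng, Ndc80 and Olfr68. Slc7a5 and Il2 were also called with dim genes set aside, and Il2 without full-medium replicate 1. Ggps1 changed sign at 0.04 with quantile normalization, 0.01 without low-leucine replicate 1, 0.00 without low-leucine replicate 3 and 0.02 without full-medium replicate 1 (range with 1 array left out -0.05 to 0.02), and Mki67 at 0.10 without low-leucine replicate 1 (range -0.10 to 0.10). The median over all genes moved by at most 0.12 on the log2 scale, between low leucine and low lysine with dim genes set aside. The cause of the sign changes was not tested.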
